A study of Mus musculus with 6 samples.

Results

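The natriuretic peptide system was examined in left ventricles of infarcted mice, as a set of 10 genes. They were named for their roles, with earlier results of these data known. The peptides are Nppa, Nppb and Nppc, and the processing proteases are Corin, Pcsk6 and Furin. The receptors are Npr1, Npr2 and Npr3, and Mme is the degrading enzyme. Of these 10 genes, 9 had a row among the 15909 genes of the deposited table, and Nppc, which encodes C-type natriuretic peptide (CNP), was not analysed here. All mice were adult C57/B6J mice, and all underwent surgical myocardial infarction (MI) by permanent ligation of the left anterior descending artery. The study's text on CCN3 administration gives an age of 8 weeks, and its text on adult MI gives a range of ages. Its text on this sequencing says only adult. The PBS group received the vehicle and the CCN3 group received recombinant human CCN3, a secreted matricellular protein, at 6 µg/kg by intraperitoneal injection. Dosing was daily, over 4 days per the labels, while other text of the study gives 3 consecutive days from the day after MI. By that text the hearts were taken 4 h after the last dose. Left ventricular tissue was taken 4 days after surgery (4 dpi) for bulk RNA sequencing, with 3 libraries per group.

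Atrial natriuretic peptide (ANP, from Nppa) and brain natriuretic peptide (BNP, from Nppb) are hormones made by cardiomyocytes. In the adult heart they come mainly from the atria, and stretched, ischemic or failing ventricles express them again, which is why both serve as markers of ventricular stress. ANP is made as a precursor that the membrane protease corin cuts at the cardiomyocyte surface, and corin is itself an inactive precursor until PCSK6 (also called PACE4) cleaves it. Furin, a protease of the secretory pathway, cuts the precursors of BNP and CNP. ANP and BNP act through NPR1 and CNP through NPR2, both of which make the second messenger cyclic GMP (cGMP). NPR3 lacks the cyclase domain and clears the peptides by internalizing them, and neprilysin, from Mme, degrades them.

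Levels are given as log2 CPM, the log2 of a gene's counts scaled to a common library total, after the authors' removal of unwanted variation (RUV, 2 factors). The spread given here is what that removal left. A difference of 1 on this scale is a doubling. The values do not give read depth, and the labels do not say whether each library came from a separate animal, so p-values measure the spread between these libraries. Any pair of libraries correlated across genes at 0.989 to 0.998. Genes were tested with limma and passed at an adjusted p under 0.2, which is also the FDR limit of the study's own analysis. The lowest adjusted p of any gene was 0.110, and 254 genes passed (82 higher and 172 lower). The tissue label was checked with the ventricular light chain gene Myl2, at 11.8 to 12.4 log2 CPM, against the atrial light chain gene Myl7, at 2.25 to 3.39.

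The set did not move as a unit. Nppa was higher in CCN3 treated ventricles and Pcsk6 was lower, and these 2 of the 9 measured genes passed the test. Over all genes, 1.60% passed, 0.515% higher and 1.08% lower. Values of the groups did not overlap for 5 of the 9 genes, with Nppa, Nppb and Furin higher and Pcsk6 and Npr3 lower. The share of all genes without overlap was 33.3%, of which 15.1% were higher and 18.2% lower. The median Log2FC was 0.02 over the 9 genes and 0.00 over all genes, with 5 of the 9 positive and 4 negative, and the median size of the change was 0.15 and 0.09. In bulk ventricular RNA, fewer cells that make a transcript and less transcript per cell cannot be told apart.

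**Figure D1:**
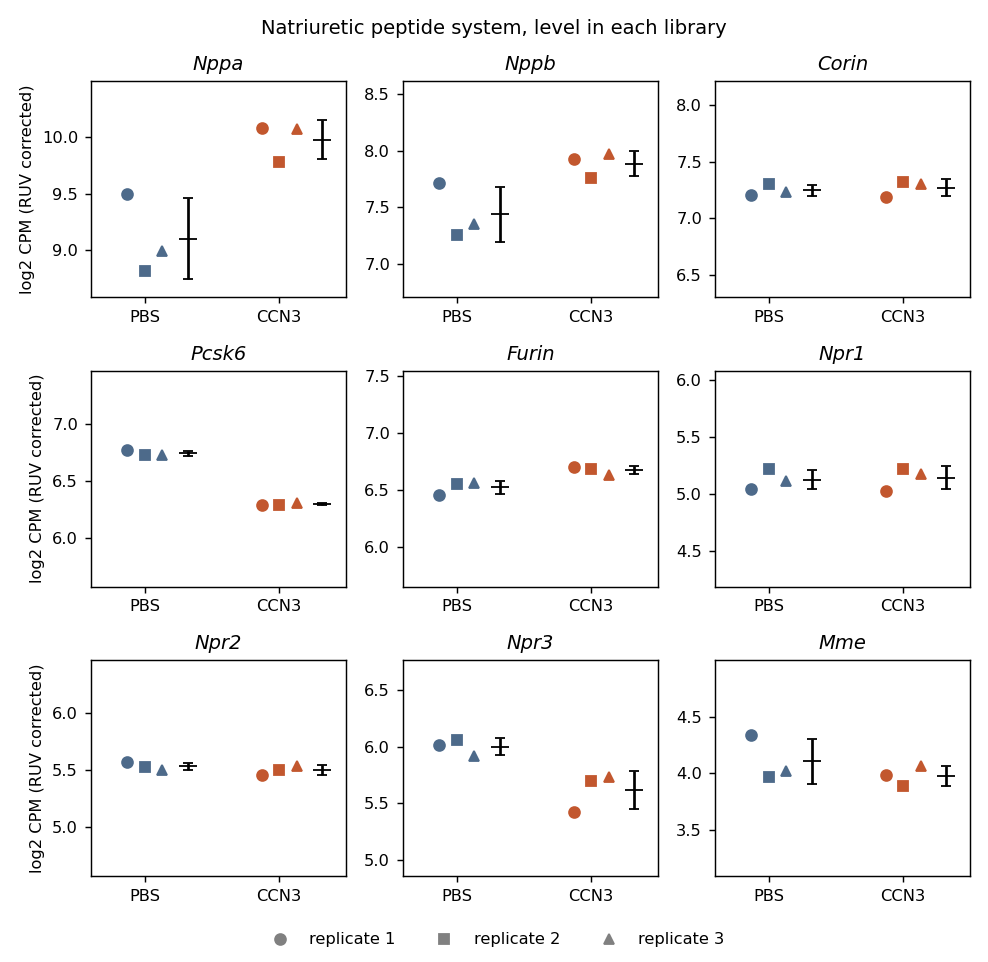
Level of each measured gene in log2 CPM after RUV correction (y axis, each panel spans 1.9 units) in PBS (blue) and CCN3 (orange) libraries, with 1 symbol per replicate and a black bar for the mean and SD of 3 libraries. The groups of Pcsk6 lie 0.42 apart and those of Nppa 0.27, whereas those of Corin, Npr1, Npr2 and Mme overlap.

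Among the peptides, Nppa had the largest change of the set. Its level was 9.50, 8.82 and 8.99 log2 CPM in PBS replicates 1, 2 and 3, and 10.08, 9.77 and 10.07 in CCN3 replicates 1, 2 and 3. All CCN3 libraries lay above all PBS libraries, and PBS replicate 1 was the highest of the controls. Nppa rose 1.83-fold, with group means of 9.10 ± 0.35 and 9.97 ± 0.17 log2 CPM (SD, n = 3) and a 95% interval of the fold from 1.33 to 2.51 (Log2FC 0.87 ± 0.19 SE, limma adjusted p = 0.198). This was just inside the threshold. The gene did not pass without PBS replicate 3 (adjusted p = 0.304), without CCN3 replicate 3 (0.279) or with each library centred on its median (0.210). Nor did it pass on log2(CPM + 1) values (0.203) or without a mean-variance trend in limma (0.458). In those fits, in the same order, 50, 127, 174, 224 and 1 of all genes passed, against 254 in the fit reported.

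Nppb followed the same direction with a smaller difference. PBS replicates 1, 2 and 3 had 7.71, 7.25 and 7.35 log2 CPM, and CCN3 replicates 1, 2 and 3 had 7.93, 7.76 and 7.97. The groups were separated by 0.05, between PBS replicate 1 and CCN3 replicate 2, which is less than the range within either group. The means were 7.44 ± 0.24 and 7.88 ± 0.11 log2 CPM (SD, n = 3), a ratio of 1.36 with a 95% interval of 1.09 to 1.69, and Nppb did not pass (Log2FC 0.44 ± 0.13 SE, limma adjusted p = 0.304). Without PBS replicate 1 the Log2FC was 0.58 and passed (adjusted p = 0.0650), in a fit where 2219 of all genes passed, against 254 in the fit reported. Within libraries the Nppb level minus the Nppa level was -1.79 to -1.57 in the PBS group and -2.15 to -2.02 in the CCN3 group, without overlap. The ratio of Nppb to Nppa in the CCN3 group was 0.74 of that in the PBS group.

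Both peptide genes lie next to each other on chromosome 4 of GRCm39, on the plus strand, Nppb from 148069859 to 148071662 and Nppa from 148085091 to 148086583. Short stretches upstream of their RefSeq start sites (RefSeq on GRCm38.p6, placed on GRCm39 by exact match) are shown because they hold, on the coding strand, the only matches of either gene to TGATAA or AGATAA, letters recognized by GATA factors, within 250 bases of the start. Capitals mark these letters and, in Nppb, the reverse complement of CATTCC, the M-CAT letters recognized by TEAD factors.
Nppa: gctttgccgaacTGATAActttaaaagggc
Nppb: aGGAATGcagcTGATAAatcagAGATAAcc
The Nppa stretch covers chr4:148085045-148085074, positions -134 to -105 from the start. The Nppb stretch covers chr4:148070251-148070280, positions -106 to -77 from the RefSeq start, and some longer GENCODE transcripts of Nppb run through it. On both strands of all 32851 RefSeq windows of 250 bases before a start, 16.6% hold TGATAA or AGATAA and 12.6% hold CATTCC. Nppa holds no CATTCC in its window, and the window of Pcsk6 holds none of these letters. A match is a description of sequence and not of binding.

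Of the nearby measured genes, 5 are described, and 0 of these 5 passed the test. On the Nppb side they were Mfn2, Plod1 and 2510039O18Rik, with Log2FC of -0.08, 0.05 and 0.08. On the Nppa side they were Clcn6 and Agtrap, with Log2FC of -0.16 ± 0.08 and 0.05 ± 0.06 (SE). The lowest limma adjusted p among these 5 was 0.584, for Clcn6, a chloride and proton exchanger gene whose 3′ end lies nearest to Nppa. A long noncoding RNA, Gm13054, overlaps Nppa on the opposite strand and had no row of its own. The library kit marks strand, but whether the counting used it is not given in the sources used here.

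**Figure D2:**
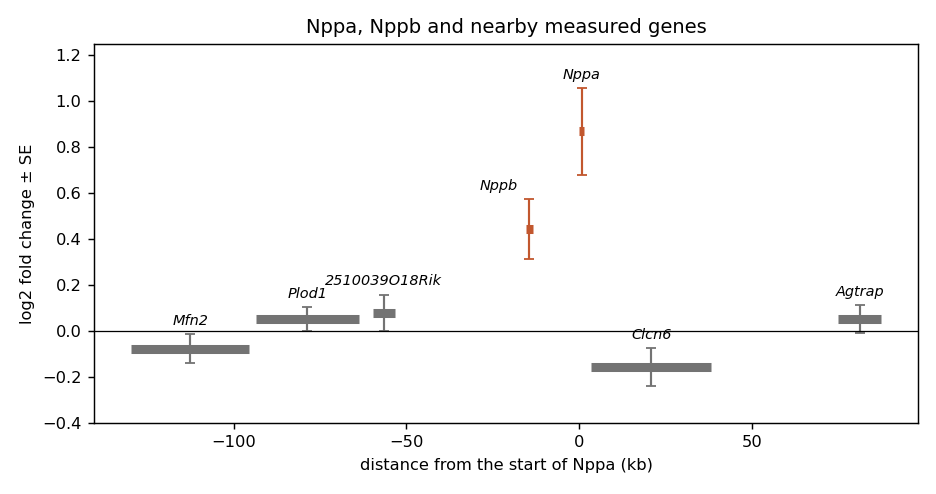
Log2FC of CCN3 against PBS with its SE (y axis) for Nppa, Nppb (orange) and 5 nearby measured genes (grey), drawn to scale by distance from the Nppa start in kb (x axis), with bars spanning each gene. Nppa (0.87) and Nppb (0.44) stand above these 5 genes, which lie between -0.16 and 0.08.

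Markers of other tissue were read beside the Nppa result. Atrial myocardium contains much Nppa, and all 3 measured atrial markers had a positive Log2FC: Sln (0.44 ± 0.36 SE), Myl4 (0.42 ± 0.29) and Myl7 (0.30 ± 0.33). None passed, and the fourth, Bmp10, had no row. Their summed level was 15.9 to 33.0 CPM in the PBS group and 22.7 to 33.5 CPM in the CCN3 group. These sums overlapped. In each group the library with the lowest Nppa level, replicate 2, also had the lowest atrial sum. Replicate 2 of each group was also lowest in the summed cardiomyocyte, ventricular cardiomyocyte, skeletal muscle, smooth muscle and pericyte markers. From high to low, Nppa was in the order of replicates 1, 3 and 2 in both groups. The atrial, cardiomyocyte and ventricular cardiomyocyte sums had the same order in both groups. Sums of skeletal muscle, smooth muscle and pericyte markers did not keep it in both. The part of atrial RNA in the Nppa result was not tested. Of 6 skeletal muscle markers, Actn3, Tnnt3 and Mylpf were measured, and the fast myosin genes Myh1, Myh2 and Myh4 had no row. The 3 summed to 3.15 to 4.98 CPM in the PBS group and 7.91 to 18.5 CPM in the CCN3 group, without overlap. Most of this low sum was Tnnt3, and 18.5 CPM was CCN3 replicate 1. Of the 3, 0 passed (limma adjusted p = 0.228 for Tnnt3), and Mylpf overlapped between the groups. The part of skeletal muscle RNA in the Nppa result was not tested. General cardiomyocyte markers went both ways, 5 of 8 with a positive Log2FC, with summed levels of 29604 to 36223 CPM in the PBS group and 29492 to 32330 CPM in the CCN3 group. Tnni3, the cardiac troponin I gene, fell (Log2FC -0.44 ± 0.08 SE, limma adjusted p = 0.177), but did not pass without PBS replicate 3 (0.244) or without CCN3 replicate 3 (0.211). In those fits 50 and 127 of all genes passed.

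Among the processing proteases, Pcsk6 showed the clearest separation of the set. It was at 6.77, 6.73 and 6.73 log2 CPM in PBS replicates 1, 2 and 3, and at 6.29, 6.29 and 6.31 in CCN3 replicates 1, 2 and 3. The range within a group was 0.04 and 0.02, compared with a gap of 0.42 between the groups. Pcsk6 fell to 0.73 of the level under PBS, with group means of 6.74 ± 0.02 and 6.29 ± 0.01 log2 CPM (SD, n = 3) and a 95% interval of 0.67 to 0.80 (Log2FC -0.45 ± 0.05 SE, limma adjusted p = 0.119). Only 11 of the 15909 genes had a smaller p. Pcsk6 passed in each of the 6 fits that left out 1 library, with Log2FC between -0.45 and -0.43 and adjusted p between 0.0641 and 0.186. It did not pass without a mean-variance trend in limma (adjusted p = 0.383), where 1 gene of the whole table passed.

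The gene lies on chromosome 7, and its protein is a secreted convertase that binds the extracellular matrix and also cleaves precursors of the TGF-beta family. Of 5 pericyte markers, 2 passed and both were lower. Kcnj8 (-0.54 ± 0.07 SE) and Abcc9 (-0.51 ± 0.07), which encode subunits of an ATP-sensitive potassium channel, fell. Their PBS means differed, at 5.12 and 8.49 log2 CPM, and expression of either gene in other cells, cardiomyocytes included, was not examined. Rgs5 (-0.44 ± 0.11, adjusted p = 0.257) and Vtn (-0.56 ± 0.17, adjusted p = 0.304) did not pass in limma, and Pdgfrb, the pericyte receptor for PDGF-B, had a Log2FC of 0.13 ± 0.06 and did not pass either. The summed level of the 5 was 1491 to 1780 CPM in the PBS group and 1157 to 1263 CPM in the CCN3 group. Of the 4 ventricular cardiomyocyte markers, Myl2 (-0.41 ± 0.14 SE) and Myl3 (-0.31 ± 0.12) had a negative Log2FC. Irx4 (0.02) and Hey2 (0.09) had a positive one, and 0 of the 4 passed. Their summed level, mostly Myl2 and Myl3, was 6700 to 8033 CPM in the PBS group and 5240 to 6268 CPM in the CCN3 group. The part of either cell type in the Pcsk6 result was not tested.

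Corin itself did not differ beyond the spread between libraries. Its level was 7.21, 7.30 and 7.23 log2 CPM in PBS replicates 1, 2 and 3, and 7.19, 7.32 and 7.30 in CCN3 replicates 1, 2 and 3. The groups overlapped over most of their range, and the ratio was 1.02 with a 95% interval of 0.91 to 1.13 (limma adjusted p = 0.939). Within libraries, the Corin level minus the Nppa level was -2.29 to -1.52 in the PBS group and -2.89 to -2.45 in the CCN3 group, without overlap. The ratio of Corin to Nppa under CCN3 was therefore 0.56 of that under PBS. With Corin nearly level, this ratio mostly restates the Nppa difference and is not a separate result.

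Furin was slightly higher, at 6.46, 6.55 and 6.56 log2 CPM in PBS replicates 1, 2 and 3 and at 6.70, 6.69 and 6.63 in CCN3 replicates 1, 2 and 3. Although the groups did not overlap, they lay only 0.08 apart, within the range of the PBS group (0.10). The ratio was 1.11 with a 95% interval of 1.01 to 1.23, and Furin did not pass (Log2FC 0.15 ± 0.06 SE, limma adjusted p = 0.439). Furin and Pcsk6 belong to the same convertase family, and their Log2FC had opposite signs. Other convertases in the lists examined were Pcsk5 (Log2FC 0.18 ± 0.11 SE) and Pcsk7 (-0.05 ± 0.07), which did not pass and were named after their values were seen.

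**Figure D3:**
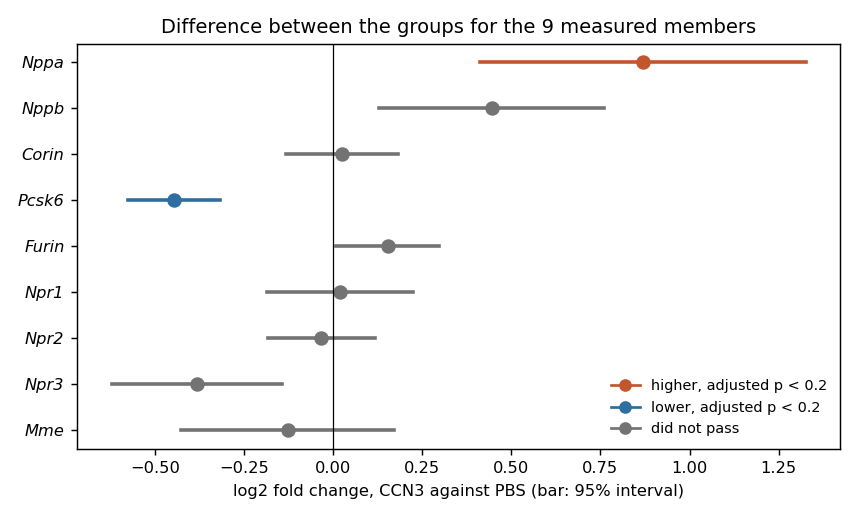
Log2FC of CCN3 against PBS (x axis) with its 95% interval from limma for the 9 measured genes (y axis), orange where the gene passed as higher, blue where it passed as lower and grey where it did not pass. Nppa (0.87) and Pcsk6 (-0.45) passed, while the intervals of Corin, Npr1, Npr2 and Mme include 0.

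The receptors that make cGMP did not differ beyond the spread between libraries. Npr1, which binds ANP and BNP, was at 5.05, 5.22 and 5.11 log2 CPM in PBS replicates 1, 2 and 3 and at 5.03, 5.22 and 5.18 in CCN3 replicates 1, 2 and 3. Npr2, which binds CNP, was at 5.57, 5.52 and 5.50 and at 5.45, 5.50 and 5.54 log2 CPM in the same order. The libraries of the groups interleaved for both. Ratios were 1.01 for Npr1, with a 95% interval of 0.88 to 1.17, and 0.98 for Npr2, with an interval of 0.88 to 1.08 (limma adjusted p = 0.970 and 0.900).

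The clearance receptor gene Npr3 was lower in each CCN3 library than in each PBS library. PBS replicates 1, 2 and 3 had 6.02, 6.06 and 5.92 log2 CPM, and CCN3 replicates 1, 2 and 3 had 5.42, 5.69 and 5.73. CCN3 replicate 1 was the lowest, and the gap between the groups was 0.19. The means were 6.00 ± 0.07 and 5.62 ± 0.17 log2 CPM (SD, n = 3), a ratio of 0.77 with a 95% interval of 0.65 to 0.91, and Npr3 did not pass over all genes (Log2FC -0.38 ± 0.10 SE, limma adjusted p = 0.259). It passed without CCN3 replicate 1 (Log2FC -0.29, adjusted p = 0.135) and without PBS replicate 1 (-0.37, 0.167). In those fits 1326 and 2219 of all genes passed, against 254 in the fit reported. Within libraries Npr3 exceeded Npr1 by 0.81 to 0.97 in the PBS group and by 0.39 to 0.55 in the CCN3 group, without overlap. The ratio of Npr3 to Npr1 RNA under CCN3 was 0.76 of that under PBS. With Npr1 nearly level, this ratio mostly restates the Npr3 difference, which did not pass, and is not a separate result. With 3 libraries against 3, an exact permutation test cannot give a p below 0.10, and none is given for these ratios.

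Npr3 is expressed by endocardium, and Npr1 by endothelium among other cells, and markers of both were therefore read beside the receptors. Of 4 endocardial markers, 3 had a positive Log2FC and Cytl1 had a Log2FC of -0.42 ± 0.23 (SE), with summed levels of 68.5 to 74.2 CPM in the PBS group and 70.9 to 75.7 CPM in the CCN3 group. These sums overlapped and 0 of 4 passed. All 8 endothelial markers had a negative Log2FC (median -0.13), 0 passed, and their summed level was 1375 to 1456 CPM in the PBS group and 1237 to 1381 CPM in the CCN3 group. The part of endothelial RNA in the Npr3 difference was not tested.

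Mme, which encodes neprilysin, was the least abundant of the 9 genes. It was at 4.33, 3.97 and 4.02 log2 CPM in PBS replicates 1, 2 and 3 and at 3.98, 3.89 and 4.07 in CCN3 replicates 1, 2 and 3. PBS replicate 1 alone lay above the other 5 libraries. The ratio was 0.92 with a 95% interval of 0.74 to 1.13 (limma adjusted p = 0.785), and the Log2FC of -0.13 became -0.01 without PBS replicate 1. Fibroblasts, neutrophils and B lymphoid precursors can also carry this enzyme. Fibroblast markers summed to 5260 to 5944 CPM in the PBS group and 5659 to 6171 CPM in the CCN3 group, neutrophil markers to 46.1 to 80.7 and 52.7 to 69.3 CPM, and B lymphoid markers to 23.6 to 25.6 and 22.9 to 25.0 CPM, with 0 genes of these 3 lists passing. Smooth muscle (367 to 433 and 391 to 422 CPM) and macrophage sums (2701 to 2913 and 2533 to 2736 CPM) also overlapped, with 0 genes passing.

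Levels were also set beside each other per kb of the longest protein-coding GENCODE transcript, since long transcripts yield more reads. On this scale the PBS means were 9.15 log2 CPM per kb for Nppa and 7.34 for Nppb, ahead of Corin (4.93), Pcsk6 (4.54) and Furin (4.11). The receptors followed, with Npr3 at 3.21, Npr2 at 2.76 and Npr1 at 2.53, and Mme was last at 1.05. In the CCN3 group Furin (4.26) stood above Pcsk6 (4.09), whereas the order of the other genes was the same. In the CCN3 group Npr3, Npr2 and Npr1 lay close together, at 2.83, 2.72 and 2.55, and neighbours this close, like Pcsk6 and Furin, are not separated, since the transcript in use may be of another length.

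Over the 3 wider lists of the pathway, 1 of 62 measured genes passed, against 1.60% of all genes. It belonged to the 23 measured genes of cGMP signaling, of which 1 fell and 0 rose, and the median Log2FC of these 23 was 0.00. The gene that fell was Rgs2, a regulator of G protein signaling that is a substrate of the cGMP-dependent protein kinase. It was at 6.06, 6.19 and 6.12 log2 CPM in PBS replicates 1, 2 and 3 and at 5.74, 5.87 and 5.82 in CCN3 replicates 1, 2 and 3. The groups did not overlap, and the ratio was 0.80 with a 95% interval of 0.72 to 0.90 (Log2FC -0.32 ± 0.07 SE, limma adjusted p = 0.198). The call was lost without PBS replicate 3 (adjusted p = 0.281) and without CCN3 replicate 3 (0.237), fits in which 50 and 127 of all genes passed. Phospholamban (Pln), another kinase substrate and a brake on calcium uptake into the sarcoplasmic reticulum, was named after its values were seen. It went from 12.37 ± 0.06 to 11.92 ± 0.05 log2 CPM (SD, n = 3), a ratio of 0.73, and did not pass (adjusted p = 0.254). Values for the soluble guanylyl cyclase and kinase genes were closer to 0, with Log2FC of 0.12 for Gucy1a1, -0.04 for Gucy1b1 and 0.12 for Prkg1, also named after their values were seen.

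Of 12 measured genes among other ligands and peptidases, 0 passed, and the median Log2FC was 0.05. The smallest p belonged to Dpp4, a dipeptidyl peptidase that trims the N-terminal end of peptides including BNP (Log2FC -0.22 ± 0.13 SE, limma adjusted p = 0.607), and Pam, an amidating enzyme abundant in cardiac secretory granules (0.15 ± 0.08, adjusted p = 0.612). Osteocrin (Ostn), a ligand of NPR3, had no row. Of 27 measured genes for transcription factors and cofactors tied to Nppa or Nppb, 0 passed, 17 had a positive Log2FC and the median was 0.06. The list mixes activators with repressors such as Rest, Hdac5 and Hdac9, so these signs give no direction for the peptides. Hand2, a basic helix-loop-helix factor of the developing ventricle, was at 4.37, 4.72 and 4.64 log2 CPM in PBS replicates 1, 2 and 3 and at 4.95, 5.10 and 4.94 in CCN3 replicates 1, 2 and 3 (Log2FC 0.42 ± 0.11 SE, adjusted p = 0.262). Tbx20, a T-box factor of cardiomyocytes, was at 7.93 ± 0.09 and 8.20 ± 0.05 log2 CPM (SD, n = 3, Log2FC 0.26 ± 0.07 SE, adjusted p = 0.272). The groups did not overlap for either gene. The GATA factor genes, whose letters are marked above, had Log2FC of 0.09 for Gata4 and 0.10 for Gata6 and were named after their values were seen. At an unadjusted p under 0.05 in limma, 6 of the 62 genes of the 3 wider lists were counted, beside 10.6% of all genes (1694 of 15909).

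**Figure D4:**
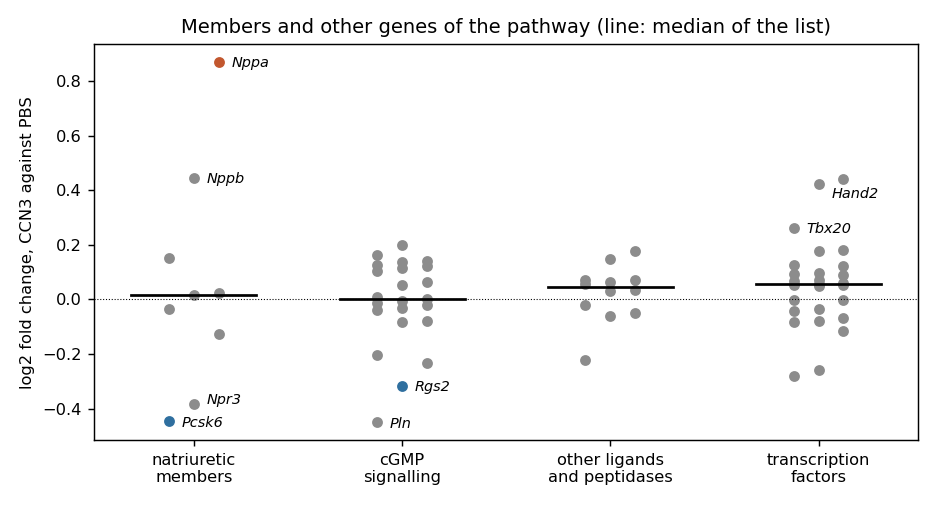
Log2FC of CCN3 against PBS (y axis) for each measured gene of the natriuretic set and of the 3 wider lists (x axis), with 1 point per gene, orange or blue where the gene passed as higher or lower, and a line at the median of each list. Medians lie between 0.00 and 0.06, and Nppa, Pcsk6 and Rgs2 are the points that passed.

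Genes whose profile over the 6 libraries was most like that of a member were ranked by the root mean square (RMS) difference of the profiles after each gene's mean was subtracted. Among 594 genes that vary enough, Nppa was closest to Sprr1a, which encodes a small proline-rich protein induced in stressed cardiomyocytes (RMS 0.06 on the log2 scale). Sprr1a passed as higher (Log2FC 0.76 ± 0.17 SE, limma adjusted p = 0.198). Frem1, Thbs4, Cilp and Tmem200a followed, with RMS up to 0.13. Thbs4, a matricellular thrombospondin, also passed as higher (Log2FC 1.02 ± 0.21 SE), while Cilp, a matrix protein made by cardiac fibroblasts (0.71 ± 0.16, adjusted p = 0.202), did not pass. For Nppb, Atp8a2, Nox4, Rgs1, Kcp and Slitrk4 were closest (RMS 0.03 to 0.05 among 2437 genes), and none of the 5 passed. Nox4 encodes a hydrogen peroxide-producing oxidase. For Pcsk6 they were Serpini1, Gpcpd1, Mgst3, Slfn1 and Pcp4l1 (RMS 0.02 to 0.03 among 3393 genes), with Log2FC between -0.46 and -0.39, and all 5 passed. The likeness includes the group difference, so the direction and much of the call of these genes follow from how they were picked and are a description only. All these profiles share the same libraries and the same 2 removed factors, which leaves few ways in which genes can differ.

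**Figure D5:**
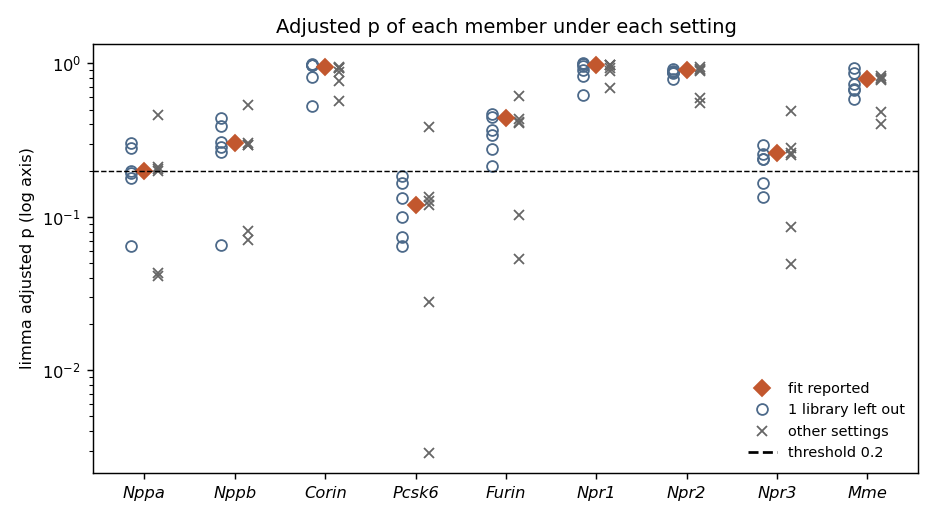
Adjusted p from limma (y axis, log scale) for each of the 9 genes (x axis) in the fit reported (diamonds), in 6 fits that each left out 1 library (circles) and in 6 other settings (crosses), with the threshold of 0.2 as a dashed line. Pcsk6 is below the line in 11 of 12 alternatives and Nppa in 7 of 12.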

How the data were processed

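Left ventricular RNA at 4 dpi was sequenced as stranded mRNA libraries, 3 from PBS and 3 from CCN3 treated mice. Per the submitters' processing notes, the authors assigned reads to GRCm39 transcripts with Salmon 1.4.0 and used edgeR. The authors removed 2 RUV factors and deposited log2 CPM values for 15909 genes. The low-count filter and prior count are not given in the sources used here. A deposited table of the authors' own fold changes and p-values was not used. Raw counts were not analysed here, so depth is unknown.

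After group means were subtracted, the values varied along 2 of 4 dimensions. The 2 empty directions were recovered (singular value below 1e-06 of the largest) and entered with treatment in limma 3.58.1 (R 4.3.3), which left 2 residual degrees of freedom. Any overlap of the removed factors with treatment is not in the values. Tests were two-sided with a mean-variance trend and Benjamini-Hochberg adjustment over all genes, and the procedure was tested on simulated data.

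Members and lists were chosen with earlier results of these data known. Named genes were the members, called genes of each list or else the 2 with the smallest p, the 3 nearest measured genes on each side of Nppa and Nppb, and the 5 genes most like Nppa, Nppb and Pcsk6 (mean of at least 1 log2 CPM, at least 0.5 of the member's SD, no placeholder symbol). One gene that this rule names is not reported here. Cell type markers were read as summed levels and by their defining genes. Groups came from the labels. Alternatives are listed in the closing section.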

Additional observations from a re-analysis of the deposited data

How the results depend on the processing

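The limma fits were recomputed under 12 alternatives. Summed levels, within-library differences, levels per kb and the likeness ranking were computed once. Fits without 1 library still used values whose RUV correction was made with all libraries. Leaving out 1 library gave between 50 and 2219 calls over all genes (254 in the fit reported), between 1 and 4 over the 9 measured members (2) and between 0 and 10 over the 62 genes of the wider lists (1). Without a mean-variance trend the counts were 1, 0 and 0 in the same order. With treatment only, ignoring the removed directions, they were 4771, 5 and 18. Centring each library on its median, or testing log2(CPM + 1), left 1 member, Pcsk6, and 0 genes of the wider lists. With the replicate number as a block, in place of the removed directions since both together leave no residual degrees of freedom, the counts were 5932, 5 and 23. Same-numbered libraries did not deviate together in every pair (correlations of 0.13, 0.97 and -0.98). A difference shared by such a pair could be among the 2 removed factors. These values therefore cannot tell whether the numbers pair the samples. Log2FC without 1 library spanned -0.0012 to 0.066 for Corin and -0.022 to 0.075 for Npr1, both of which changed sign. The other 7 members kept their direction in all 12 alternatives. Pcsk6 was called in 11 of 12, Nppa in 7, Npr3 in 4, Nppb in 3, Furin in 2 and Corin, Npr1, Npr2 and Mme in 0. The cause of these shifts was not tested. Filtering at a mean of 1 log2 CPM changed no call of a member.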
